A study of Drosophila melanogaster with 12 samples.

Results

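Genes of synaptic transmission were followed in RNA from whole heads of Drosophila melanogaster in which *PIG-A*, whose product is needed to make glycosylphosphatidylinositol (GPI) anchors, was knocked down in neurons or in glia. The set held 34 genes of the 17737 in the count table, chosen by FlyBase symbol for their known roles. The choice was made with earlier results of these data known. It comprised elav as a marker of neurons, 5 genes of the active zone, 8 of vesicle fusion, 7 of the vesicle pool and its recycling, and 13 that make, load or take up a transmitter (1 for glutamate, 2 for acetylcholine, 2 for GABA and 8 for monoamines). All 34 were in the table, and 32 had counts. The adjoining genes stnA and stnB, which encode the stoned proteins of vesicle recycling, had 0 counts in all 12 libraries. Their annotated exons, at X:22980722-23004648 on the minus strand of BDGP Release 6, are the same 8332 bases, and whether this bears on the zero counts was not tested. They are left out of the counts of tested members below.

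The 4 groups had 3 libraries each, and the question was how loss of *PIG-A* in either kind of cell changed expression in the head. Neuron controls were ELAV-GAL4 x AttP (BDSC 36304) and neuron-specific knockdowns ELAV-GAL4 x RNAi (BDSC 62696), while glia controls were REPO-GAL4 x AttP (BDSC 36304) and glia-specific knockdowns REPO-GAL4 x RNAi (BDSC 62696). All flies therefore carried a GAL4 driver and were kept at 25°C. By the labels they were aged 3 to 5 days and a library came from 5 to 10 heads. The study's methods instead give an age of 3 days and 10 heads, of males. The drivers act in all neurons or in all glia, the knockdown came from a single RNAi line, and the RNA was from the whole head, so knocked-down and normal cells were mixed. In such bulk RNA, fewer cells of a type and less RNA per cell cannot be told apart.

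A synapse releases transmitter when a vesicle, docked at a protein scaffold called the active zone, fuses with the membrane as calcium enters. Fusion is carried out by a complex of SNARE proteins on the vesicle and the membrane and timed by the calcium sensor synaptotagmin, after which the vesicle membrane is taken back by endocytosis and refilled. Which transmitter a neuron uses is set by the enzymes and transporters it makes. In the fly brain acetylcholine is the main excitatory transmitter and GABA the main inhibitory transmitter. Motor neurons use glutamate, as do other neurons, and small groups of cells use dopamine, serotonin, octopamine or tyramine.

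Depth was 20694850 to 31893782 counts per library, with 11995 to 12528 genes detected. Levels are given as CPM (counts scaled to a common library size) after TMM scaling, which damps the effect of a few abundant genes. *PIG-A* was at 3.62 to 5.19 CPM in neuron controls and at 2.54 to 3.06 CPM in the neuron-specific knockdown, with no overlap (log2 fold change −0.55 ± 0.20 (SE), edgeR adjusted p = 0.284). In heads of the glia-specific knockdown it was at 3.99 to 5.28 CPM, overlapping the glia controls at 4.81 to 4.86 CPM, so the label of the glia knockdown was not checked by this gene. Replicate 3 of the neuron-specific knockdown and replicate 3 of the glia controls stood apart from the rest. Their 9 muscle markers summed to 15641 and 16376 CPM, against 3395 to 5274 CPM in the other 10 libraries. The same 2 libraries held the highest level of 24 of the 32 members among the 6 libraries of their driver, where 28.2% and 27.1% of all tested genes were highest. Replicate 2 of the glia controls held the lowest level of 21 of the 32, where 20.2% of all tested genes were lowest. Yolk protein transcripts, which are markers of females, were present in every library although the methods describe males. They summed to 65114 to 94250 CPM in neuron controls, 86454 to 186680 CPM in the neuron-specific knockdown, 40906 to 120390 CPM in glia controls and 102350 to 170430 CPM in the glia-specific knockdown. The part of muscle or female RNA in the results was not tested, and results are also given without the libraries that decided them.

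Per length of exon, the members spanned a wide range of levels in all 4 groups. The vesicle SNARE gene nSyb was highest, at 258 ± 15.5 (SD, n = 3) CPM per kb in neuron controls and 271 ± 15.1 CPM per kb in glia controls. The fusion clamp gene cpx followed at 139 ± 11.7 and 129 ± 29.9 CPM per kb, and the calcium sensor gene Syt1 was at 117 ± 6.64 and 119 ± 25.4 CPM per kb. Among the genes that set a transmitter, Gad1, which makes GABA, was at 113 ± 1.56 CPM per kb in neuron controls and 124 ± 52.1 CPM per kb in glia controls, so it and Syt1 did not differ beyond their spread. In neuron controls the vesicular transporters VGlut, VGAT and VAChT were at 29.7 ± 0.192, 26.9 ± 1.34 and 19.3 ± 0.653 CPM per kb. At the low end were the genes of rare neurons: SerT, the serotonin transporter, at 5.99 ± 0.525, Tdc2, the neuronal tyrosine decarboxylase, at 3.83 ± 0.291, and DAT, the dopamine transporter, at 3.73 ± 0.819 CPM per kb. The loading and synthesis genes of a transmitter were thus far apart in level for GABA and close for acetylcholine, where ChAT was at 22.8 ± 0.389 CPM per kb beside VAChT. VAChT and ChAT lie at 1 locus and share 8.5% and 15.1% of their exon bases, so some of their counts could belong to either.

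**Figure D1:**
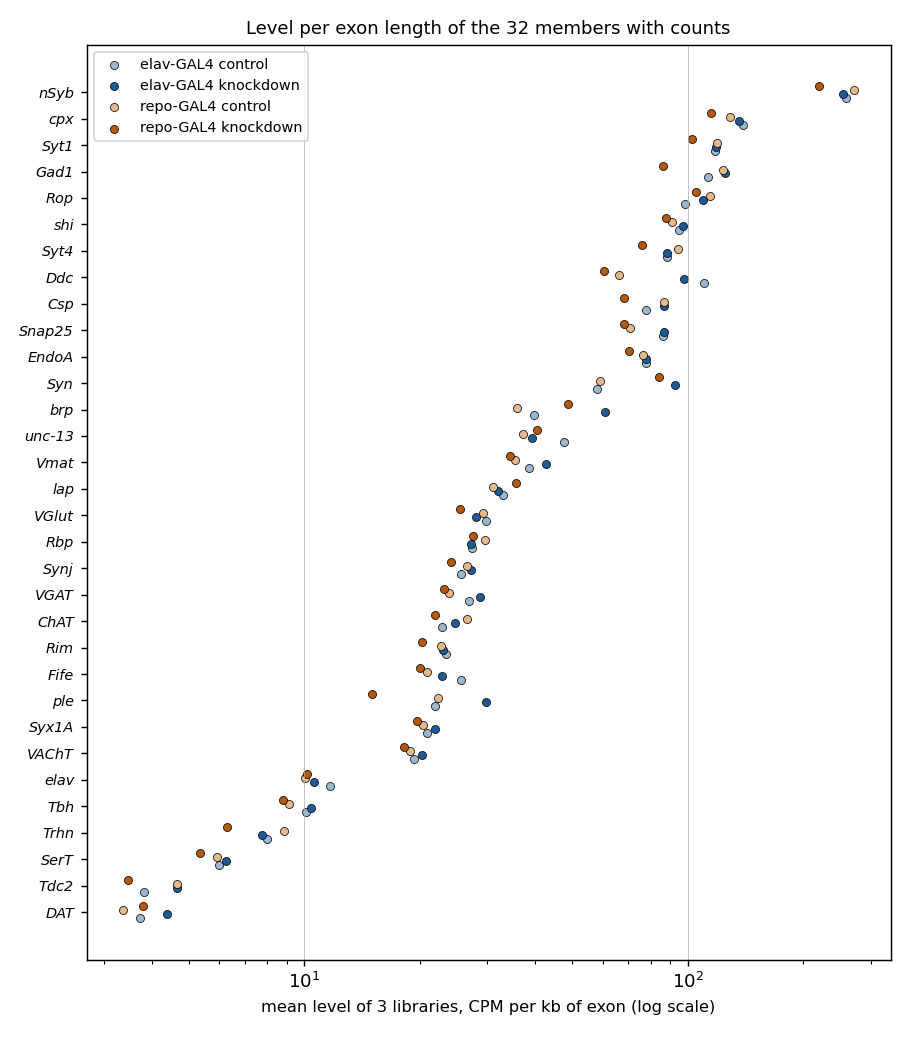
Mean level of the 32 members with counts in each of the 4 groups (points, each the mean of 3 libraries), in CPM per kb of exon on a log scale. The members run from DAT at 3.73 to nSyb at 258 CPM per kb in neuron controls, and the 4 points of a gene lie close together beside that range.

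Knockdown in neurons left the synaptic genes near their control levels, with Syn and brp as the members that stood out. Of the 32 members, 20 were fitted higher and 12 lower, with a median log2 fold change of 0.03 (0.0025 over all 9983 genes tested, of which 50.6% were higher). The study's thresholds were used to call a gene, namely an edgeR adjusted p up to 0.05 together with a change of 1.5-fold or more. By this rule 1 member, Syn, rose and none fell, where 0.16% of all genes were called and 0.0801% were called higher. Unadjusted p was under 0.05 for 2 members, Syn and brp, and for 14.4% of all genes, and DESeq2 called both, where it called 2.64% of all genes. For 25 of the 32 members the 95% interval of the fold change lay within 1.5-fold in either direction, as it did for 64.3% of all genes. Without the high-muscle replicate 3 of the knockdown, the median was −0.07, with 6 members higher and 26 lower. The direction of the list as a whole thus turned with that library.

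Syn encodes synapsin, the phosphoprotein that tethers the reserve pool of synaptic vesicles. The gene lies at 3R:10190689-10222442 on the plus strand. Its level was 340.1, 328 and 338 CPM in the neuron controls and 513, 542 and 555 CPM in the neuron-specific knockdown. The knockdown libraries were close to each other and all far above the controls. Its log2 fold change was 0.68 ± 0.08 (SE; 95% interval 0.48 to 0.88), with an edgeR adjusted p of 0.046. In the glia-specific knockdown Syn was at 475, 450.2 and 535 CPM, against 358, 278 and 395 CPM in the glia controls. These groups did not overlap either, and the spread of the controls was wider than in the neuron comparison. The log2 fold change there was 0.50 ± 0.17 (95% interval 0.10 to 0.90), and it did not pass the call (edgeR adjusted p = 0.144; DESeq2 adjusted p = 0.0414 with a change under 1.5-fold). The gene Timp lies inside Syn on the other strand and covers 4.3% of its exon bases. Timp was at 81.1 to 119 CPM over the 12 libraries and at 81.4 to 98.8 CPM in the neuron-specific knockdown, where Syn was highest.

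The call of Syn in neurons was close to the threshold. It was lost when any of the 3 controls or replicate 1 of the knockdown was left out (edgeR adjusted p from 0.0708 to 0.384), and the lowest adjusted p over the 6 fits was 0.0137. It was also lost with library totals alone (0.56, adjusted p = 0.0837), with the replicate number as a block (adjusted p = 0.164) and in a fit of all 12 libraries (adjusted p = 0.0622). The log2 fold change stayed between 0.66 and 0.70 in all 6 fits that left out a library. In glia, leaving out the high-muscle control replicate 3 gave 0.62 with an adjusted p of 0.0449, which passed, and leaving out control replicate 2 gave 0.36.

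brp encodes Bruchpilot, the ELKS/CAST-related scaffold protein that forms the dense projection of the fly active zone and clusters calcium channels beneath it. It lies at 2R:9503765-9541565 on the plus strand, and no annotated exon of another gene overlaps its own. Its level was 525, 540.2 and 524 CPM in the neuron controls and 694.5, 776 and 971 CPM in the knockdown. The 3 knockdown libraries were above every control and spread widely, with the high-muscle replicate 3 the highest. The log2 fold change was 0.62 ± 0.14 (SE; 95% interval 0.30 to 0.93), at an edgeR adjusted p of 0.144 and a DESeq2 adjusted p of 0.000835. Without replicate 3 of the knockdown it was 0.48. In glia, brp was at 644, 601 and 705 CPM in the knockdown and at 509, 330.0 and 600.3 CPM in the controls. The lowest knockdown library lay just above the highest control library. The log2 fold change was 0.43 ± 0.23 (95% interval −0.11 to 0.98; edgeR adjusted p = 0.316), 0.22 without control replicate 2 and 0.63 without control replicate 3.

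**Figure D2:**
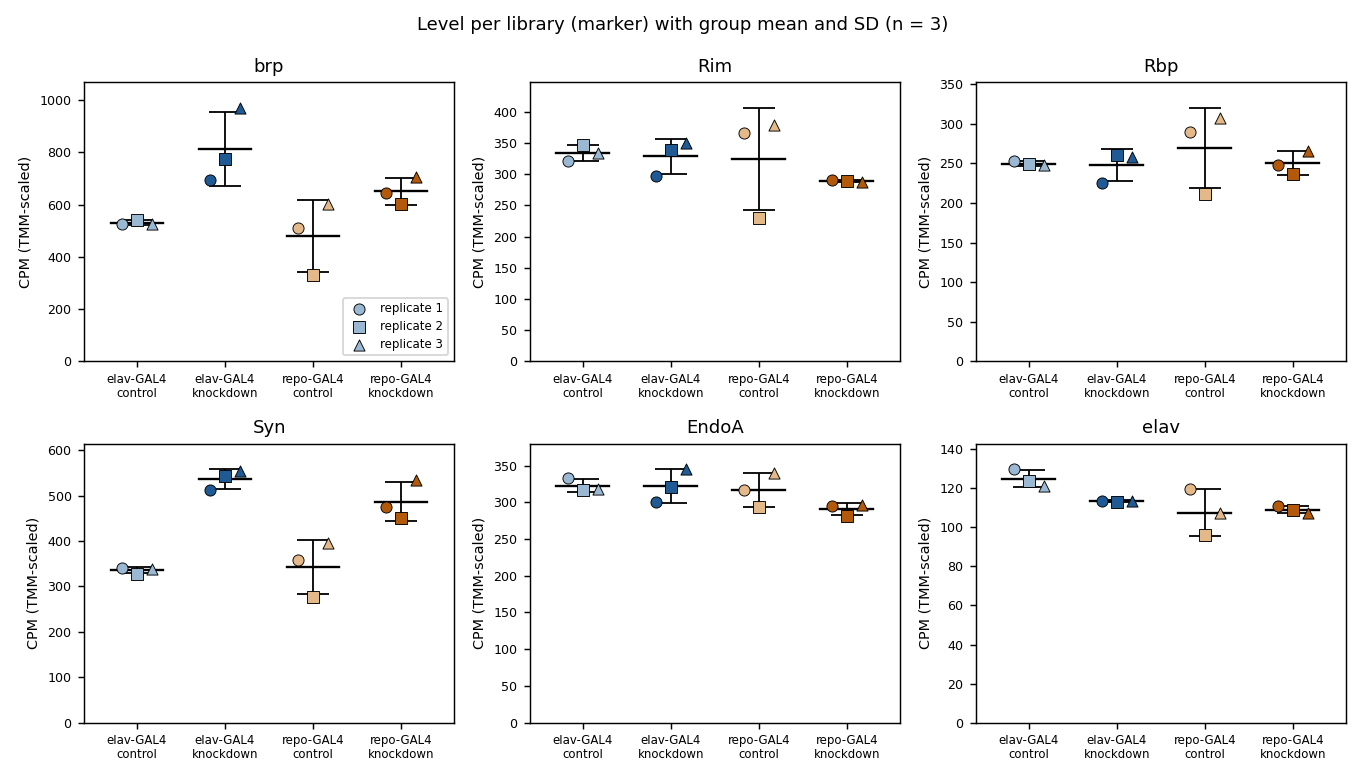
Level in CPM (vertical axis, from 0) of brp, Rim, Rbp, Syn, EndoA and elav in each library (marker shape: replicate number) by group, with the group mean and SD (n = 3). Syn was at 513 to 555 CPM in the neuron-specific knockdown and 328 to 340.1 CPM in its controls, while Rim, Rbp and EndoA overlapped between knockdown and control in both drivers.

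The other scaffold genes of the active zone did not share the pattern of brp. Rim, whose product links vesicles and calcium channels, was at 321 to 346 CPM in neuron controls and 297 to 350.3 CPM in the knockdown (log2 fold change −0.02 ± 0.10, edgeR adjusted p = 0.935). Rbp, the RIM-binding protein gene, was at 247 to 253 CPM and 225 to 261 CPM (−0.01 ± 0.09, adjusted p = 0.968). Fife, a Piccolo-RIM related scaffold gene, was at 235.5 to 254 and 198 to 235.7 CPM (−0.16 ± 0.09, adjusted p = 0.48). The priming factor gene unc-13 was lower without overlap, at 833 to 930.4 CPM against 974.5 to 1265 CPM, with a log2 fold change of −0.28 ± 0.14 that did not pass (adjusted p = 0.395). Annotated genes and elements overlap 28.4% of the exon bases of unc-13, so its counts are less certain.

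Ratios within a library, which depend neither on depth nor on scaling, were formed after these values had been seen, with partner genes that had not moved. They restate the levels above as a description and are no further support. There were 1.56 to 1.64 counts of brp for each count of Rim in neuron controls and 2.29 to 2.77 in the neuron-specific knockdown. The same ratio was 1.39 to 1.59 in glia controls and 2.08 to 2.45 in the glia-specific knockdown. All 6 knockdown libraries were above all 6 controls in this ratio. The ratio of brp to Rbp was 2.07 to 2.17 in neuron controls, 2.97 to 3.76 in the neuron-specific knockdown, 1.56 to 1.95 in glia controls and 2.53 to 2.65 in the glia-specific knockdown. For Syn relative to EndoA, the endophilin gene of vesicle recycling, it was 1.02 to 1.06, 1.61 to 1.71, 0.944 to 1.16 and 1.599 to 1.80 in the same order. Here too no control library reached the lowest knockdown library. Such a parting was not particular to brp and Syn. Counts of VGlut for each count of VAChT were 1.19 to 1.26, 1.08 to 1.14, 1.171 to 1.32 and 1.08 to 1.167 in the same order. In that ratio all 6 knockdown libraries were below all 6 controls. The share of all gene pairs that part in this way was not counted. Relative to elav, brp did overlap in glia: the ratio was 5.53 to 6.56 in the glia-specific knockdown and 3.44 to 5.60 in its controls, where the high-muscle replicate 3 was the highest.

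**Figure D3:**
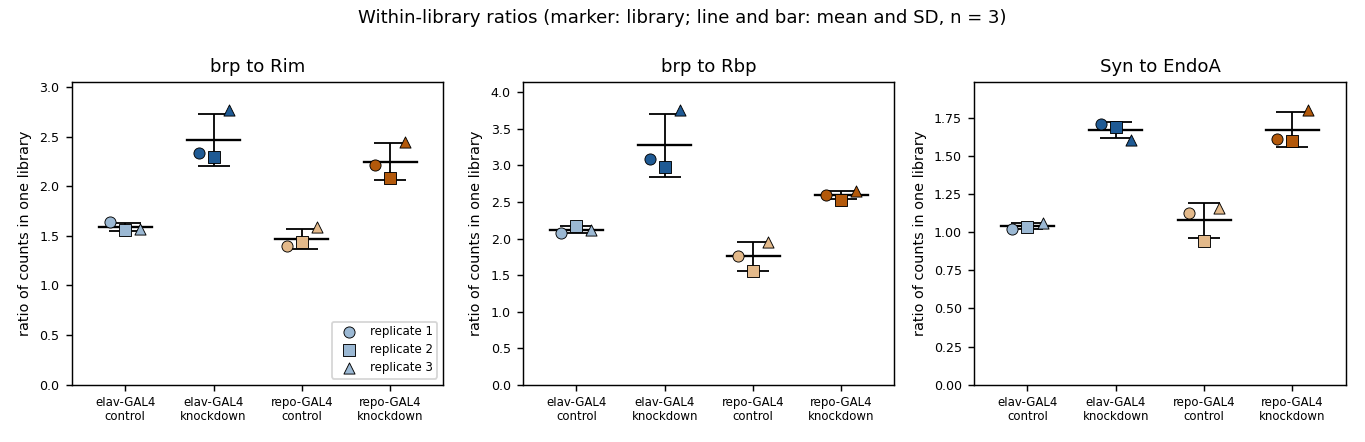
Ratio of counts within each library (vertical axis, from 0) for brp to Rim, brp to Rbp and Syn to EndoA, by group, with the group mean and SD (n = 3). In each panel the 6 knockdown libraries lie above the 6 control libraries, for brp to Rim at 2.08 to 2.77 against 1.39 to 1.64.

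Averaged over both drivers in a fit of all 12 libraries, a comparison added after the values had been seen, Syn was the member that rose. Its mean log2 fold change was 0.59 ± 0.09 (SE), with an edgeR adjusted p of 0.00562, where 1.56% of all 10257 genes were called and 0.965% were called higher. The adjusted p stayed at 0.00192 to 0.0235 when each library was left out. The fold lay at the 1.5-fold limit and fell short of it in 4 of those 12 fits, down to 0.52 without glia control replicate 2. For brp the mean was 0.53 ± 0.14 (adjusted p = 0.0624), and it passed at 0.63 without glia control replicate 3 (adjusted p = 0.0157). Of the 32 members, 9 were higher and 23 lower (50.6% of all genes were lower), with a median of −0.06. The 95% interval lay within 1.5-fold for 29 of them, as it did for 73.8% of all genes. The difference between the drivers was 0.17 ± 0.18 for Syn (95% interval −0.22 to 0.57, adjusted p = 0.613) and 0.18 ± 0.27 for brp (−0.42 to 0.78, adjusted p = 0.741).

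elav, the RNA-binding protein gene used as a marker of neurons, lay the other way in the neuron comparison. It was at 130, 124 and 121 CPM in controls and 114, 113 and 114 CPM in the knockdown, without overlap, yet the log2 fold change of −0.14 ± 0.07 did not pass (edgeR adjusted p = 0.388). With elav and unc-13, 2 members were lower and 2 higher without overlap, where 11% and 10.6% of all genes were. The 7 other neuron markers had a median of −0.01 in this comparison, with 3 higher and 4 lower and none called. In glia, elav was at 107 to 111 CPM in the knockdown and 95.9 to 120 CPM in controls (0.02 ± 0.11). That sign turned to −0.07 without control replicate 2. Other genes overlap 34.2% of elav's exon bases.

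Knockdown in glia left none of the 32 members called by edgeR or by DESeq2, where 3.6% of all genes were called by edgeR (2.67% higher and 0.925% lower) and 6.77% by DESeq2. The fitted values leaned lower, with 6 members higher and 26 lower and a median log2 fold change of −0.12 (−0.02 over all 9951 genes, of which 52.7% were lower). Unadjusted p was under 0.05 for Syn among the higher members and for Syt4, Csp and Trhn among the lower ones, 4 of 32 beside 22.3% of all genes. Without overlap, Syn and brp were higher and Syt4, nSyb, Csp, Gad1 and Trhn lower, 2 and 5 of 32, where 15.9% and 13.6% of all genes were. The interval lay within 1.5-fold for 18 members and for 52.2% of all genes. Without control replicate 3, the one with high muscle markers, the median was 0.02 with 19 members higher and 13 lower. Without control replicate 2 it was −0.25 with 4 higher and 28 lower.

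**Figure D4:**
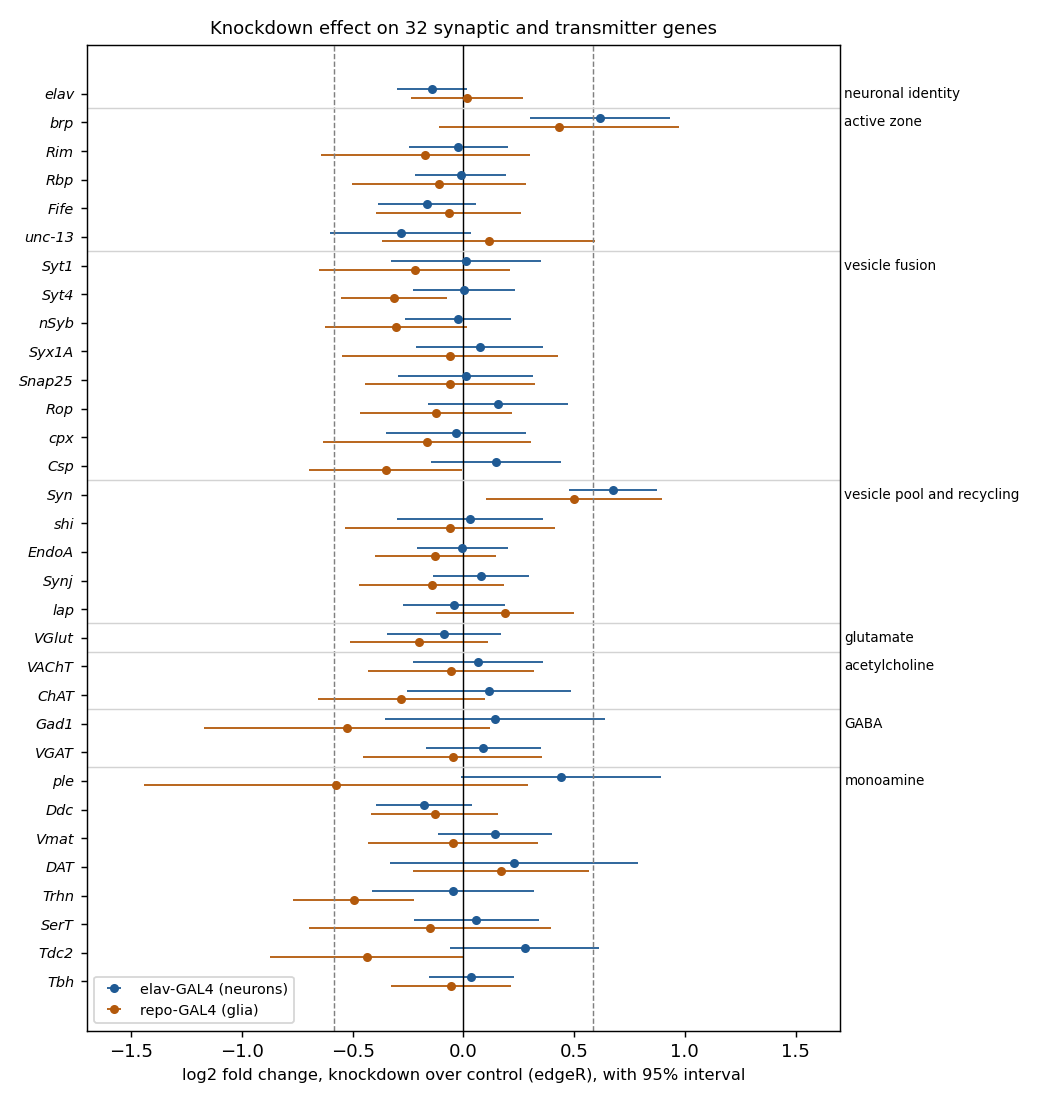
Log2 fold change of knockdown over control (horizontal axis, points) with its 95% interval (bars) from edgeR for the 32 members, in the elav-GAL4 (blue) and repo-GAL4 (orange) comparisons, ordered by class; dashed lines mark 1.5-fold. Syn at 0.68 and brp at 0.62 were the highest in neurons, where most other members lay near 0, and 26 of the 32 lay below 0 in glia.

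Vesicle fusion genes stayed near their control levels in neurons and all lay lower in glia. In the neuron comparison 6 of 8 were higher and 2 lower, from −0.03 to 0.16, none called, and all 8 intervals lay within 1.5-fold. The largest value was that of Rop, the Sec1/Munc18 gene that binds syntaxin, at 0.16 ± 0.13 (edgeR adjusted p = 0.64), which became −0.01 without knockdown replicate 3. In the glia comparison all 8 were lower, from −0.35 to −0.06, with a median of −0.19 and none called. Without the high-muscle libraries, 1 was higher and 7 lower in neurons (median −0.07), and 4 were higher and 4 lower in glia (median −0.02), while without glia control replicate 2 all 8 were lower in glia (median −0.30). Syt4, a synaptotagmin of postsynaptic and other vesicles, was at 294, 296 and 289 CPM in glia controls and 231, 242 and 236 CPM in the knockdown. Both groups were tight and did not overlap, and the log2 fold change was −0.31 ± 0.10 (edgeR adjusted p = 0.13; DESeq2 adjusted p = 0.00841 with a change under 1.5-fold). nSyb, the neuronal synaptobrevin, was at 1112, 1039 and 1161 CPM and at 901, 858 and 927 CPM (−0.30 ± 0.14, edgeR adjusted p = 0.241). Csp, which encodes the cysteine string protein, a vesicle chaperone of SNAREs, was at 248, 234 and 320.1 CPM and at 210.5, 202 and 218 CPM (−0.35 ± 0.15, edgeR adjusted p = 0.221). Its highest control library was the one with high muscle markers, and the value without it was −0.20. Snap25 and Syx1A, the membrane SNARE genes, were both at −0.06 (adjusted p = 0.863 and 0.897), and cpx and Syt1 at −0.16 and −0.22.

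Apart from Syn, the vesicle pool and recycling genes stayed within their spread. shi, which encodes the dynamin that cuts off endocytic vesicles, was at 555 to 595 CPM in neuron controls and 507 to 708 CPM in the knockdown (0.03 ± 0.14, edgeR adjusted p = 0.945). EndoA was at 317 to 333 and 299.8 to 345 CPM (−0.01 ± 0.09, adjusted p = 0.989). Synj, whose product synaptojanin strips the coat from vesicles, was at 0.08 ± 0.09 in neurons and −0.14 ± 0.14 in glia. lap, the AP180 gene of clathrin assembly, was at −0.04 ± 0.10 in neurons and 0.19 ± 0.13 in glia. In glia 2 of the 5 tested genes were higher, Syn and lap, and 3 lower, with a median of −0.06.

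The 13 transmitter genes held no called change in either knockdown. In neurons 10 were higher and 3 lower, with a median of 0.09 and a range from −0.18 to 0.44, and in glia 1 was higher and 12 lower, with a median of −0.15. Both leanings changed without the high-muscle libraries: 3 were then higher and 10 lower in neurons (median −0.04), and 7 higher and 6 lower in glia (median 0.02). Without glia control replicate 2, 1 was higher and 12 lower in glia (median −0.31). The transporter genes of the fast transmitters overlapped between knockdown and control. VGlut was at 169 to 171 CPM in neuron controls and 146 to 188 CPM in the knockdown (−0.09 ± 0.11, edgeR adjusted p = 0.764), VAChT at 134 to 142 and 128 to 174 CPM (0.07 ± 0.12, adjusted p = 0.852), and VGAT at 69.0 to 76.2 and 68.8 to 90.4 CPM (0.09 ± 0.11, adjusted p = 0.759). In glia the same 3 were at −0.20 ± 0.13, −0.06 ± 0.16 and −0.05 ± 0.17. ChAT, which makes acetylcholine, was at 0.11 ± 0.16 in neurons and −0.28 ± 0.16 in glia (adjusted p = 0.783 and 0.354), and the neuron value became −0.10 without knockdown replicate 3. Counts of VAChT for each count of ChAT were 1.44 to 1.59, 1.37 to 1.59, 1.204 to 1.29 and 1.41 to 1.58 in neuron controls, neuron-specific knockdown, glia controls and glia-specific knockdown.

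Gad1 and ple were spread widely within 2 groups, and their highest levels were in the 2 high-muscle libraries. Gad1 encodes glutamate decarboxylase and lies at 3L:4074077-4088744. It was at 410.4, 421 and 418 CPM in neuron controls, at 368, 376 and 641 CPM in the neuron-specific knockdown, at 364, 326 and 676 CPM in glia controls and at 321, 324 and 307 CPM in the glia-specific knockdown. The 641 and the 676 CPM were both of replicate 3, where muscle markers summed to 15641 and 16376 CPM. Knockdown over control gave a log2 fold change of 0.14 ± 0.21 in neurons (edgeR adjusted p = 0.798) and −0.52 ± 0.28 in glia (adjusted p = 0.311), and without those libraries it was −0.16 and −0.12. ple encodes tyrosine hydroxylase, the rate-limiting enzyme of dopamine synthesis, which also serves pigment formation in the cuticle, and lies at 3L:6713356-6719525. It was at 101, 71.4 and 77.8 CPM in neuron controls, at 102, 93.4 and 145 CPM in the neuron-specific knockdown, at 59.6, 51.3 and 144 CPM in glia controls and at 58.9, 55.5 and 57.2 CPM in the glia-specific knockdown. For ple the log2 fold change was 0.44 ± 0.19 in neurons (adjusted p = 0.354) and −0.57 ± 0.37 in glia (adjusted p = 0.41), and 0.23 and 0.05 without the same libraries. VGAT was also highest in those libraries, at 90.4 CPM against 68.8 to 76.2 CPM in the other 5 under elav-GAL4 and at 81.2 CPM against 51.8 to 65.9 CPM in the other 5 under repo-GAL4, but by less than Gad1. There were 0.120 and 0.141 counts of VGAT for each count of Gad1 in those 2 libraries and 0.159 to 0.208 in the other 10.

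**Figure D5:**
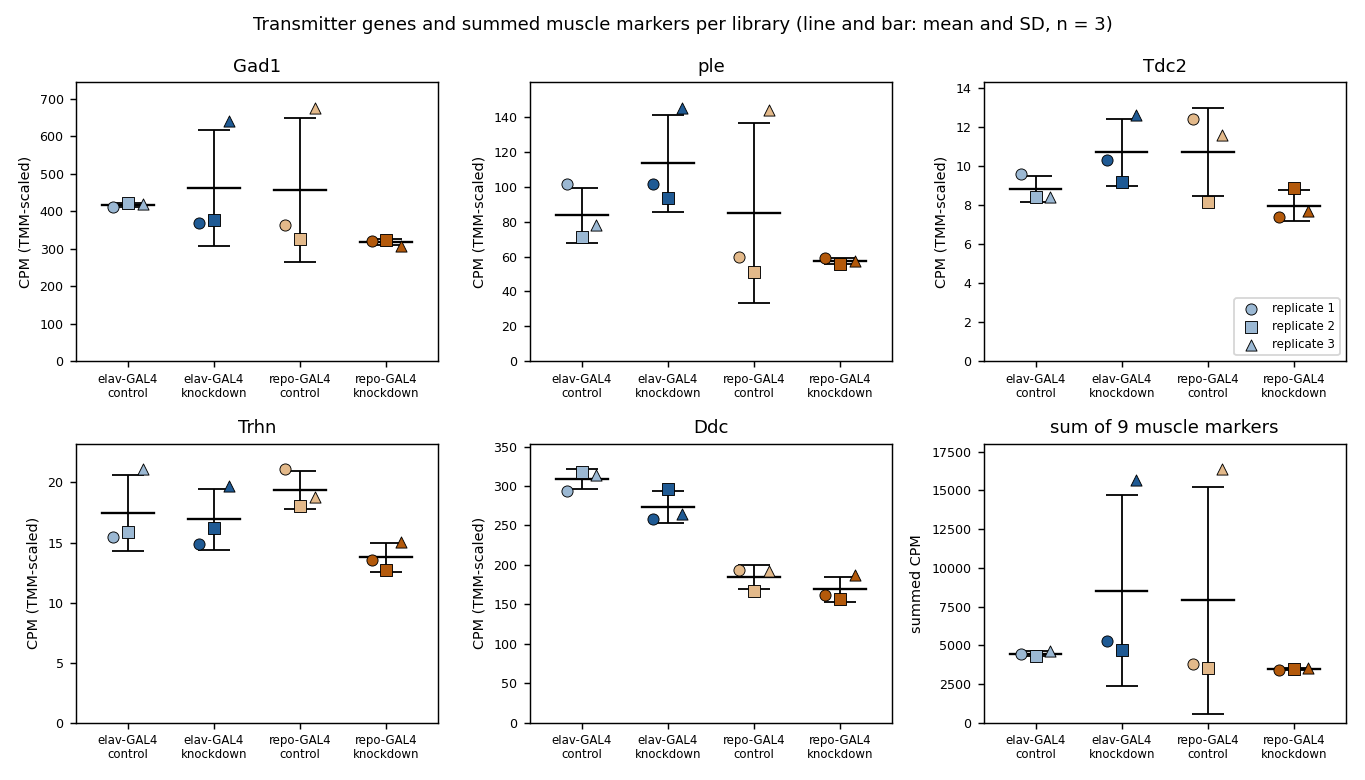
Level in CPM (vertical axes, from 0) of Gad1, ple, Tdc2, Trhn and Ddc, and the summed CPM of 9 muscle markers, in each library (marker shape: replicate number) by group, with the group mean and SD (n = 3). Gad1 and ple were highest in the 2 libraries with muscle sums of 15641 and 16376 CPM, and Ddc was at 259 to 318 CPM under elav-GAL4 and at 157 to 193 CPM under repo-GAL4.

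Among the serotonin, octopamine and tyramine genes, Trhn was the lowest in glia relative to its error. It encodes the neuronal tryptophan hydroxylase of serotonin synthesis and lies at 3L:1190384-1193173, with 4.1% of its exon bases shared with CG13912. Its level was 21.1, 18.1 and 18.8 CPM in glia controls and 13.6, 12.7 and 15.03 CPM in the glia-specific knockdown. The groups did not overlap, and the log2 fold change of −0.50 ± 0.12 missed the threshold (edgeR adjusted p = 0.0633; DESeq2 adjusted p = 0.0193 with a change under 1.5-fold). In neurons Trhn was at 15.5 to 21.1 CPM in controls and 14.9 to 19.7 CPM in the knockdown (−0.05 ± 0.16, adjusted p = 0.923). SerT, which takes serotonin back up, was at −0.15 ± 0.23 in glia and 0.06 ± 0.12 in neurons. Tdc2, which makes tyramine in neurons, was at 9.58, 8.41 and 8.43 CPM in neuron controls, 10.3, 9.19 and 12.6 CPM in the neuron-specific knockdown, 12.4, 8.16 and 11.6 CPM in glia controls and 7.40, 8.86 and 7.69 CPM in the glia-specific knockdown. Knockdown and control overlapped under both drivers, with log2 fold changes of 0.28 ± 0.14 in neurons and −0.43 ± 0.19 in glia (adjusted p = 0.425 and 0.226). Tbh, which turns tyramine into octopamine, was at 0.04 ± 0.08 and −0.06 ± 0.12. Vmat and DAT, the vesicular and the membrane transporter of monoamines, were at 0.14 ± 0.11 and 0.23 ± 0.24 in neurons and at −0.05 ± 0.16 and 0.17 ± 0.17 in glia, none past the threshold.

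The difference between the neuron and glia effects, tested as an interaction over the 12 libraries, was not called for any of the 32 members by edgeR or DESeq2, where 3.01% of all genes were called by edgeR and 6.38% by DESeq2. The neuron effect was the higher one for 27 members and the lower for 5, with a median difference of 0.14 (0.02 over all genes, of which 52.2% were higher). Unadjusted p was under 0.05 for 4 members, Syt4, Csp, Trhn and Tdc2, with differences of 0.32, 0.50, 0.45 and 0.71, and for 21.1% of all genes. The largest differences were those of ple, at 1.01 ± 0.46 (edgeR adjusted p = 0.24), of Tdc2, at 0.71 ± 0.24 (adjusted p = 0.126), and of Gad1, at 0.67 ± 0.38 (adjusted p = 0.332). With the 2 high-muscle libraries left out together, the median was −0.06, with 10 members higher and 22 lower, and the values of ple, Tdc2 and Gad1 became 0.18, 0.52 and −0.04. Tdc2 passed without glia control replicate 2 alone (0.87, adjusted p = 0.0306). The interval of the difference lay within 1.5-fold for 10 members and for 36.4% of all genes. For most members it thus reached past a 1.5-fold difference between the drivers.

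The transmitter gene that edgeR called lay apart between the drivers and not between knockdown and control. Ddc encodes dopa decarboxylase, which makes dopamine and serotonin in neurons and also acts in the hardening and darkening of the cuticle. It lies at 2L:19116483-19120306 on the minus strand, with 3.1% of its exon bases under CG10561, which was at 26.8 to 43.1 CPM. Its level was 294, 318 and 314 CPM in neuron controls and 193, 167 and 193 CPM in glia controls. Every elav-GAL4 control was above every repo-GAL4 control, by a log2 fold change of 0.74 ± 0.10 (SE; 95% interval 0.52 to 0.97; edgeR adjusted p = 0.00233). Ddc was the 1 member of 32 called between the controls, where 4.78% of all genes were called and 2.49% were called higher under elav-GAL4. The knockdown flies, compared after this had been seen, showed the same order at 259, 296 and 264 CPM against 162, 157 and 188 CPM (0.69 ± 0.10, adjusted p = 0.00278), where 4.76% of all genes were called. Between the knockdowns 29 of the 32 members were higher under elav-GAL4, as 50.4% of all genes were, with a median of 0.21 (0.12 to 0.26 with a library left out). Without overlap, 15 were higher and 0 lower, where 17.9% and 18.5% of all genes were, and Ddc was the 1 member called by edgeR. The 7 neuron markers leaned the same way, with 6 higher, 1 lower and a median of 0.20. The 8 glia markers leaned the other way, with 1 higher, 7 lower and a median of −0.46. Without overlap, 5 neuron markers were higher and 6 glia markers lower. How far the members follow a shift of all neuron genes was not tested. DESeq2 called 2 of the 32 members between the knockdowns, both of them monoamine genes and higher under elav-GAL4. Over all genes it called 307 higher and 396 lower there, where edgeR tested 10257. These 2 calls are not read as a result about the monoamine genes. Both edgeR calls of Ddc were kept in all 12 fits that left out a library. Within each driver, the knockdown did not move it past the threshold (−0.18 ± 0.09 in neurons and −0.13 ± 0.12 in glia, adjusted p = 0.425 and 0.575). The driver and the genetic background of its stock cannot be told apart here.

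The other members were near each other in the 2 kinds of controls, with a median log2 difference of 0.03 over the 32 (−0.02 over all genes) and 19 higher under elav-GAL4, as 47.4% of all genes were. Without overlap, elav (0.22 ± 0.08), Fife (0.29 ± 0.11) and unc-13 (0.35 ± 0.17) were also higher under elav-GAL4 and Syt4 (−0.10 ± 0.09) lower, at edgeR adjusted p of 0.138, 0.153, 0.236 and 0.525. With Ddc these made 4 members higher and 1 lower, where 13.7% and 13.2% of all genes were. Without glia control replicate 3 the median was 0.20, and without glia control replicate 2 it was −0.09.

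Wider lists of the same machinery, which hold none of the members, held few called genes. In neurons, 0 of 16 other release genes, 0 of 11 other recycling genes and 0 of 17 other transmitter genes were called by edgeR or DESeq2, with medians of 0.02, 0.11 and 0.14. Unadjusted p was under 0.05 for 0, 2 and 4 of them, beside 14.4% of all genes. In glia the medians were −0.08, −0.17 and 0.01, and 1 gene was called by edgeR, where 3.6% of all genes were called, with unadjusted p under 0.05 for 1, 0 and 6, beside 22.3% of all genes. That gene was b, which encodes the aspartate decarboxylase that makes beta-alanine. It was at 32.7, 75.3 and 44.1 CPM in glia controls and 159, 151 and 153 CPM in the glia-specific knockdown. The knockdown libraries were tight and all far above the controls, and b rose by a log2 fold change of 1.61 ± 0.27 (edgeR adjusted p = 0.027), a call that was lost without control replicate 1 or any of the 3 knockdown libraries (adjusted p from 0.0809 to 0.106). e, which encodes the glial enzyme that joins beta-alanine to dopamine and histamine, was at 33.8, 107 and 66.3 CPM in controls and 227, 218 and 189 CPM in the knockdown. Its log2 fold change of 1.62 ± 0.36 missed the threshold in edgeR (adjusted p = 0.0566) and passed in DESeq2 (adjusted p = 5.73e-05).

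Markers of other cells moved beside these results. In the neuron comparison the 8 tested muscle markers were all higher, with a median of 0.91 and none called, and their sum was 4318.5 to 4618 CPM in controls and 4679 to 15641 CPM in the knockdown. In the glia comparison all 8 were lower, with a median of −1.30 and none called, and their sum was 3535.5 to 16376 CPM in controls and 3395 to 3507 CPM in the knockdown. The 8 glia markers had a median of 0.11 in neurons, none called, and of 0.41 in glia, where 2 of the 8, Gli and alrm, rose beside 3.6% of all genes called. All 12 photoreceptor markers and all 7 neuron markers were lower in glia, with medians of −0.20 and −0.17 and none called. The 3 female markers were higher in both knockdowns, with medians of 0.89 in neurons and 0.64 in glia and none called by edgeR (DESeq2 called 2 in neurons), and the median of their mean effect over both drivers was 0.76, with unadjusted p under 0.05 for all 3. They were thus higher with knockdown under both drivers, as Syn and brp were. In replicate 3 of the neuron-specific knockdown they summed to 86454 CPM, inside the range of its controls. Syn and brp were highest in that high-muscle library, as 24 of the 32 members were among the 6 libraries of the driver. Whether female RNA bears on Syn and brp was not tested. The 5 tested fat body markers had medians of 0.20 in neurons and 0.02 in glia, where Lsd-1 fell, and 0.54 for the mean over both drivers, with 3 higher and 2 lower in each. The part of these shifts in the values of the synaptic genes was not tested beyond leaving out the libraries above.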

How the data were processed

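RNA from heads was sequenced in 12 libraries, 3 for each group, and the labels gave the groups. The authors deposited a raw count of reads for each FlyBase gene, made by trimming with seqtk and aligning to BDGP Release 6 (dm6) with Bowtie2, an aligner that does not split reads over introns. The counting tool and its use of strand are not given in the sources used here, so the larger overlaps of exons are named. Besides those given above, eIF4EHP covers 10.7% of the exon bases of Syx1A and was at 76 to 108 CPM. Syx1A itself was at 57.6 to 109 CPM. CG13330 covers 26.2% of the exon bases of Vmat and was at 0 to 0.28 CPM. The authors' tables of fold changes and p-values from DESeq2 were not used. Members and lists were chosen with earlier results of these data known.

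Counts were fitted in R 4.3.3 with edgeR 4.0.16 (default low-count filter, TMM, two-sided quasi-likelihood F test), 6 libraries per driver and 12 for the interaction, the controls, the knockdowns and the mean of both drivers. Adjusted p-values are Benjamini-Hochberg values over every gene in a fit. Genes were called at adjusted p up to 0.05 with 1.5-fold or more. Intervals are at 95%. Exon lengths and overlaps came from Ensembl release 115. Alternatives were DESeq2 1.42.0, RLE size factors, library totals alone, no filter, no minimum fold, a replicate block, a fit of all 12 libraries and leaving out each library. The text names the members, and of the wider lists the genes called by either tool within a driver or in the interaction. The scripts were tested on simulated data. A count of 3 corresponds to 0.0825 to 0.143 CPM. Replicate pairs differed far beyond counting error (chi-square per gene 8.15 to 293), so p-values measure the spread between these libraries.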

Additional observations from a re-analysis of the deposited data

Results flagged for a closer look

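The effects of the 2 drivers differed by the edgeR interaction for 2 genes of the wider transmitter list. Tdc1 of that list was called by DESeq2 and not by edgeR, at a log2 difference of 0.65 in edgeR. DESeq2 called 6.38% of all genes there. For 1 recycling gene the libraries parted in opposite directions. For b, the neuron effect minus the glia effect was −1.80 on the log2 scale (edgeR adjusted p = 0.0194). b was at 27.8 to 37.3 CPM in the neuron-specific knockdown and 31.6 to 44.1 CPM in its controls, against 151 to 159 and 32.7 to 75.3 CPM in glia. The call was lost without neuron control replicate 2 or glia knockdown replicate 1 (adjusted p = 0.0576 and 0.0564).

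For prt, which encodes a vesicular transporter related to that of monoamines, the difference was 0.63 (edgeR adjusted p = 0.0467). prt was at 13.6 to 15.8 CPM in the neuron-specific knockdown and 10.3 to 12.7 CPM in its controls, and at 10.4 to 11.8 and 12.7 to 14.1 CPM in glia. The call was lost in 11 of the 12 fits that left out a library and without the 2 high-muscle libraries (adjusted p = 0.0882).

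For Clc, the clathrin light chain gene, every neuron-specific knockdown library lay above its controls, but only just. It was at 111.19 to 113.93 CPM there and 93.2 to 111.1 CPM in the controls, and 10.6% of all genes were higher without overlap. Every glia-specific knockdown library lay below its controls, at 93.0 to 105.4 CPM against 107.6 to 124.7 CPM, where 13.6% of all genes were lower without overlap. The difference of 0.33 on the log2 scale did not pass (edgeR adjusted p = 0.17).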

How the results depend on the processing

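In neurons, members called (1, Syn) became 2 with DESeq2 (Syn and brp), 0 with library totals alone, 0 with a replicate block, 0 in a fit of 12 libraries, and 0 to 1 with a library left out. All genes called (16) became 278, 43, 2, 30 and 1 to 199 in that order, and 49 without the low-count filter. In glia, members called (0) were 0 to 1 with a library left out, and all genes called (358) became 698 with DESeq2, 212 with the block, 538 in a fit of 12 libraries and 3 to 676. For the interaction, members called (0) were 0 to 1, all genes called (309) became 686 with DESeq2 and 130 to 485, and the median of members (0.14) became −0.059 without the 2 high-muscle libraries and ranged from 0.0055 to 0.31. Between controls, all genes called (490) became 757 with no minimum fold and 202 to 608, and the median ranged from −0.095 to 0.20. For the mean of both drivers, members called (1) became 0 with library totals alone, 0 without the filter and 0 to 2 with a library left out, and all genes called (160) became 299 with DESeq2, 322 with no minimum fold and 88 to 283. Values that changed sign, with the range over fits that left out a library, were Rop (−0.0067 to 0.24), ChAT (−0.097 to 0.24) and Gad1 (−0.16 to 0.28) in neurons, all negative without knockdown replicate 3, elav in glia (−0.10 with library totals alone; −0.068 to 0.098, negative without control replicate 2), ple in glia (−0.84 to 0.046, positive without control replicate 3), and in the interaction brp (−0.16 without both high-muscle libraries; −0.012 to 0.39, negative without glia control replicate 3) and Gad1 (−0.044 without both). Same-numbered control and knockdown libraries correlated at −0.154 to 0.142 and differently numbered ones at −0.139 to 0.139, so the numbers showed no pairing by this measure. Whether same-numbered libraries shared a batch was not tested. With the block, Syn in neurons kept its log2 fold change of 0.68 at an edgeR adjusted p of 0.164, and Ddc between controls stayed called at 0.00624. The causes of these shifts were not tested, beyond fewer samples in the fits that left libraries out. With 3 libraries per group, the spread between libraries went beyond counting error over all genes. How far depth limited the precision for the low members was not tested.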
